A study of Mus musculus with 4 samples.

Results

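Cytosolic ribosomal protein genes were followed in polyA site data from the CA1 neuropil of mouse hippocampus, the layer beside the pyramidal cell bodies that holds mainly their dendrites, with axons and glia. Members were the listed sites whose gene name is an Rpl, Rps or Rplp symbol followed by a number, or Rpsa, leaving out Rps6 kinase genes and pseudogene names that contain -ps. They came to 39 of 9297 sites, 34 of 7202 gene names and 302 of 34672 tags. The samples were 4 replicate libraries of 1 group, from C57BL/6 mice of the genotype Camk2a-Cre x Pabpc1- cTag. In these mice Cre, driven by the Camk2a promoter of excitatory neurons, switches on GFP fused to Pabpc1, a protein that binds poly(A) tails, and tags are the RNA fragments crosslinked to it and recovered through GFP. Per the study's methods each replicate pooled several mice, neuropil and cell body libraries were pooled after barcoding, and the age of these mice is not given beyond a reference to the adult collection of another assay. No second group was analysed here, so the data hold no contrast between compartments or genotypes.

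Ribosomal proteins assemble with ribosomal RNA into a large subunit, which forms the peptide bond, and a small subunit, which reads the mRNA. Their mRNAs are short and abundant, and most begin with a run of pyrimidines, the 5′ terminal oligopyrimidine (TOP) motif, through which their translation responds to mTOR signalling. Mammalian genomes hold many processed copies of these genes. Ribosomal protein mRNAs are known from neuronal processes, where local synthesis of some ribosomal proteins has been described.

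The sites of 7 members with tags in every replicate, and that of Rpl8, are shown because they recurred across replicates and place the polyA signal against the site, and in 3 of them against the stop codon. Each line gives 30 bases of the mm10 genome on the strand of the gene, with the listed site at base 13. Capitals mark the polyA signal and, where the window reaches it, the stop codon. The windows are chr9:61913285-61913314 (minus strand) for Rplp1, chr14:24495832-24495861 (plus) for Rps24, chr4:3834480-3834509 (minus) for Rps20, chr17:27630415-27630444 (minus) for Rps10, chr9:120574400-120574429 (plus) for Rpl14, chr7:45720804-45720833 (plus) for Rpl18, chr7:118109080-118109109 (minus) for Rps15a and chr15:76906276-76906305 (plus) for Rpl8. All 8 lie in the annotated 3′UTR of the named gene.
Rplp1: gttaagttggctAATAAAgagctgaacctg
Rps24: aggacaAATAAActaaaaagctcctacacg
Rps20: gatgccTAAgacaactgAATAAAtcgtctt
Rps10: tgAATAAActttaaagaaaaacatgtccac
Rpl14: cacagaatAATAAAggttctttttgacggt
Rpl18: tgttAATAAAaaaaacattggatgatgatg
Rps15a: cttttttTAAacgtaaagcataAATAAAaa
Rpl8: cTAGagttcaggagctAATAAAgtacgtcc

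Replicates 1 to 4 held 16017, 6609, 5947 and 6099 tags in all, of which 25.2% of replicate 1 lay at a single site outside the members. Where a gene had 0 tags, its share could still reach 0.0187%, 0.0454%, 0.0504% and 0.0492% in replicates 1 to 4, the value of 3 tags. The labelled neurons were checked through 10 pyramidal neuron markers, of which 8 had tags under their own names. Camk2a and Slc17a7 were at 0 by name, but sites listed under other names inside these genes held 215 and 23 tags. Of 10 oligodendrocyte markers 9 had tags, and Mal was at 0.

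Ribosomal protein genes took up a small and uneven share of the neuropil tags. They held 144, 103, 36 and 19 tags in replicates 1 to 4. As shares these were 0.899% (95% Wilson interval 0.764 to 1.06), 1.56% (1.29 to 1.89), 0.605% (0.438 to 0.837) and 0.312% (0.2 to 0.486), with a mean of 0.844% ± 0.534 (SD, n = 4). Replicate 2 stood highest and replicate 4 lowest, and the intervals of these 2 replicates did not overlap. Without the single site that dominated replicate 1 the shares were 1.2%, 1.56%, 0.619% and 0.317%, in the same order. Intervals cover counting error only, since PCR can turn 1 molecule into several tags.

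Marker lists for 6 cell types also varied between these libraries. By name, the oligodendrocyte list summed to 0.306%, 0.56%, 0.219% and 0.148% of tags in replicates 1 to 4, the order of replicates seen for the ribosomal protein share. That order rested on Mbp, with 20, 27, 6 and 2 tags, and without it the sums were 0.181%, 0.151%, 0.118% and 0.115%, with replicate 1 highest. The pyramidal neuron list, counted by position so as to include Camk2a and Slc17a7, summed to 1.99%, 0.862%, 1.63% and 2.9%, lowest in replicate 2 and highest in replicate 4. These sums came from 319, 57, 97 and 177 tags and leaned on single genes. Camk2a held 152, 24, 12 and 27 of them, Snap25 held 31, 3, 36 and 57, and Map2 held 23, 8, 14 and 19. By name the pyramidal neuron list summed to 0.999%, 0.454%, 1.36% and 2.33%. The 10 astrocyte markers, all with tags, summed to 0.462%, 0.393%, 0.42% and 0.213%. The interneuron list (6 of 10 with tags by name) summed to 0.0749%, 0.0908%, 0.219% and 0.312%, and by position to 0.0749%, 0.0908%, 0.135% and 0.131%. The blood and vessel list (5 of 10) summed to 0.025%, 0.514%, 0.992% and 0.0984% and was highest in replicate 3. Hbb-b1 alone held 3, 29, 58 and 6 of its tags, or 96 of 103. The microglia list summed by name (4 of 10 with tags) to 0.0499%, 0.0605%, 0.0168% and 0, also in the order of the ribosomal protein share, and by position (5 of 10) to 0.0687%, 0.0605%, 0.0168% and 0, with replicate 1 highest. Its markers C1qb, Csf1r, P2ry12, Tmem119 and Aif1 were at 0 by name and position. The part of other cells in the spread of the ribosomal protein share was not tested, and in these bulk libraries fewer cells of a type and less RNA per cell cannot be told apart.

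Compared with other genes of the protein synthesis and energy machinery, ribosomal proteins had the largest SD between replicates of the 4 lists. Nuclear-encoded respiratory chain and ATP synthase genes, another abundant group, held 1.34% ± 0.374 of tags. Translation initiation and elongation factors held 0.337% ± 0.0854, and proteins of the mitochondrial ribosome held 0.226% ± 0.03 (SD, n = 4 for each). Without Rplp1 and Rps24 the SD of ribosomal proteins was 0.239, below that of respiratory chain genes. Ribosomal protein tags exceeded translation factor tags in 4 of 4 replicates, with log2 ratios of 1.74, 2.16, 0.42 and 0.16 (mean 1.12 ± 0.98). They exceeded mitochondrial ribosomal protein tags in 4 of 4 as well, by 1.96, 2.60, 1.71 and 0.44 (mean 1.68 ± 0.91). Against respiratory chain genes the log2 ratio was -0.95, 0.03, -0.56 and -1.94 (mean -0.86 ± 0.83), above 0 only in replicate 2. These ratios compare whole lists of unequal size. The lists had 34 ribosomal protein, 58 respiratory chain, 35 translation factor and 44 mitochondrial ribosomal protein gene names. In the same order, tags per site over all replicates were 7.74, 7.33, 2.39 and 1.61.

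The exact sign-flip permutation test over replicates (two-sided) gave p = 0.13 for the ratios to translation factors and to mitochondrial ribosomal proteins, which is the smallest value that 4 replicates allow, and p = 0.25 for the ratio to respiratory chain genes. Adjusted over the 4 ratios computed (Benjamini-Hochberg), these exact p-values were 0.167, 0.167 and 0.25, so none passed a threshold of 0.05. Without Rplp1 and Rps24 the mean log2 ratio to translation factors was 0.15 ± 0.84 (exact p = 0.75) and that to mitochondrial ribosomal proteins 0.71 ± 0.85 (exact p = 0.25), while that to respiratory chain genes was -1.83 ± 0.84 (exact p = 0.13, again the smallest possible).

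**Figure D1:**
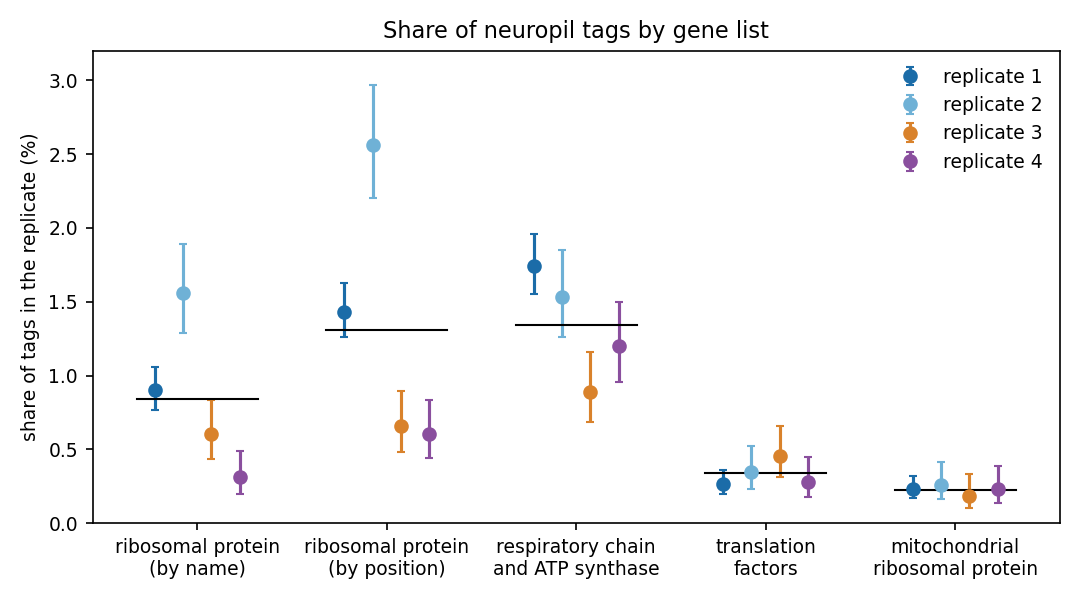
Share of each replicate's tags (%, y axis) at ribosomal protein genes, taken by the listed name and by position, and at 3 comparison lists. Points are replicates with 95% Wilson intervals and black lines are means: ribosomal protein shares by name ran from 0.312% to 1.56%, while those of mitochondrial ribosomal proteins ran from 0.185% to 0.257%.

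Among the members, tags were concentrated in a pair of genes. Rplp1 and Rps24 together held 157 of the 302 member tags (52.0%), or 55.6%, 52.4%, 38.9% and 47.4% in replicates 1 to 4, and without them the share was 0.419% ± 0.239 (SD, n = 4). Another 10 gene names (29.4%) had a single tag. Names with 1 tag shared rank 4054 of 7202 by total tags, so low counts were common in the whole table. Tags in more than 1 replicate were found for 20 of the 34 names (58.8%), against 47.4% of all gene names. Of the 34 gene names, 8 (23.5%) had tags in every replicate, against 7.76% of all gene names in the table. By site, 19 of 39 (48.7%) had tags in more than 1 replicate, against 34.2% of all sites, and 8 (20.5%) had tags in all 4, against 4.9%. The share of sites in more than 1 replicate was higher for respiratory chain genes, at 69.6%. It was 39.1% for translation factors and 26.5% for mitochondrial ribosomal proteins. Names in the table differ in how many tags they hold, and no test was made of these shares. Members with tags numbered 26, 22, 17 and 9 gene names in replicates 1 to 4. By site they numbered 28, 22, 18 and 9 of 39, beside 4824, 2673, 3534 and 3233 of all 9297 sites.

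**Figure D2:**
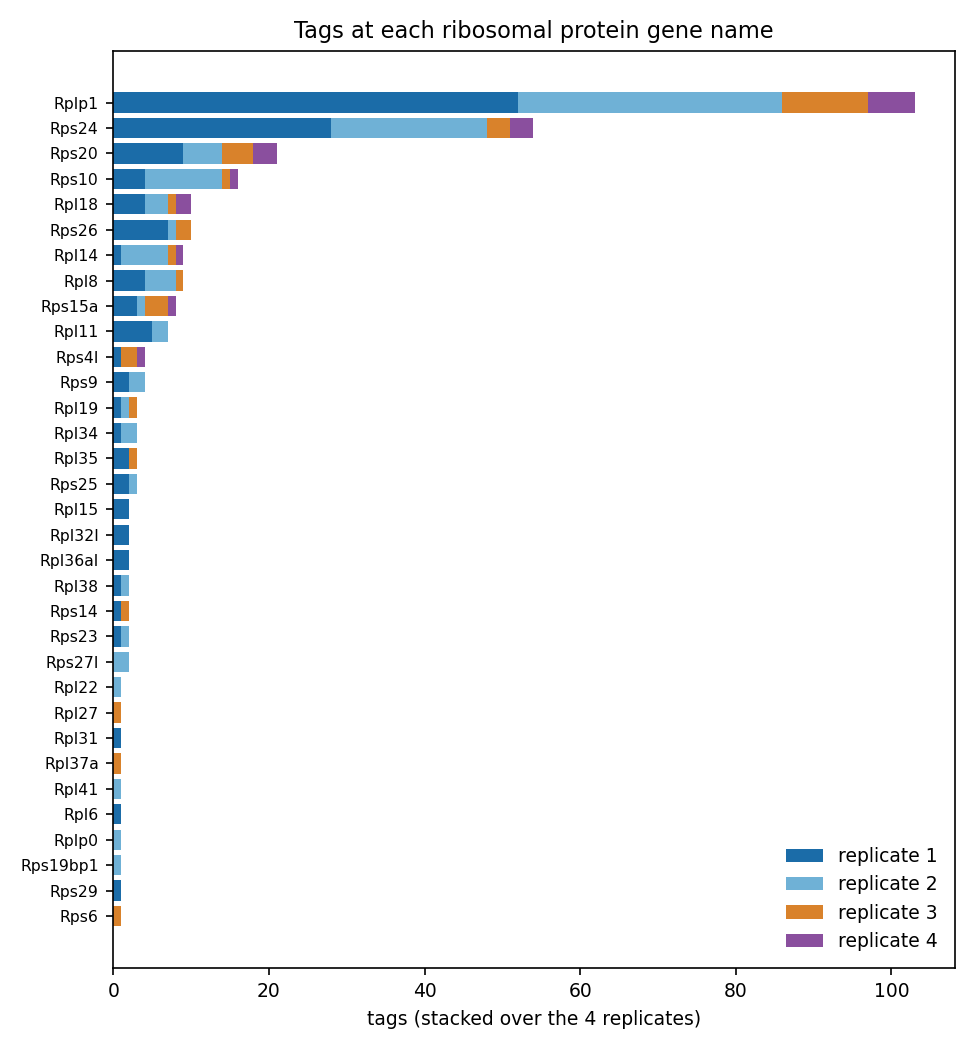
Tags (x axis) at 33 of the 34 ribosomal protein gene names (y axis), stacked over the 4 replicates. Rplp1 with 103 tags and Rps24 with 54 stand above Rps20 with 21, and 10 names have 1 tag.

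Rplp1 encodes a protein of the P stalk, the flexible arm of the large subunit that recruits elongation factors. It had 52, 34, 11 and 6 tags in replicates 1 to 4, all at 1 site at chr9:61913302 on the minus strand. The shares were 0.325%, 0.514%, 0.185% and 0.0984% (mean 0.281% ± 0.182, SD, n = 4), which ranked 22 of 7202 gene names. Replicates 1 and 2 were high and replicate 4 low, and the chi-square statistic between replicates was 7.2 per degree of freedom, where 1 is sampling noise. As a part of the ribosomal protein tags by name, of which it is itself a large part, Rplp1 made up 36.1%, 33.0%, 30.6% and 31.6% (mean 32.8% ± 2.42), with 95% Wilson intervals from 28.7 to 44.2 in replicate 1 and from 15.4 to 54.0 in replicate 4. Against these tags its chi-square was 0.19 per degree of freedom. Of the tags inside subunit genes by position, whatever their listed name, it made up 22.7%, 20.1%, 28.2% and 16.2%. The 50 bases at the site matched 12 places in the genome, and how tags with several matches were placed is not given in the sources used here. The other stalk genes had little: the scaffold protein gene Rplp0 had 1 tag, in replicate 2, and Rplp2, the partner of Rplp1, had none by name or position.

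Rps24, a small subunit protein, was the next highest. It had 28, 20, 3 and 3 tags at chr14:24495844 on the plus strand, or 0.175%, 0.303%, 0.0504% and 0.0492% of tags (mean 0.144% ± 0.121, SD, n = 4). Replicates 1 and 2 were high and replicates 3 and 4 low, and without replicate 2 the mean was 0.0915%. The chi-square per degree of freedom was 6.08 against all tags and 0.899 against ribosomal protein tags.

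Rps20, also of the small subunit, had 9, 5, 4 and 3 tags over 2 sites, and its shares of 0.0562%, 0.0757%, 0.0673% and 0.0492% (mean 0.0621% ± 0.0117, SD, n = 4) lay close together. Its chi-square was 0.158 per degree of freedom against all tags and 1.36 against ribosomal protein tags. Rplp1, Rps24 and Rps20 were the 3 members with at least 20 tags, and their median of 6.08 compares with 4.89 over 211 genes with that many tags. Over the 7 members with at least 10 tags the median was 1.15, and over all 533 such genes it was 2.42.

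Other members with tags in every replicate had few. Rps10, a small subunit protein, had 4, 10, 1 and 1 tags, and replicate 2 alone was high. Rpl14, of the large subunit, had 1, 6, 1 and 1 tags, again with replicate 2 alone high. Without replicate 2 the mean shares fell to 0.0194% for Rps10, from 0.0524%, and to 0.0132% for Rpl14, from 0.0326%. Rpl18, of the large subunit, had 4, 3, 1 and 2 tags, and Rps15a had 3, 1, 3 and 1. The 95% Wilson intervals of the 4 replicates overlapped for Rpl18 and for Rps15a. For Rps10 and Rpl14 the interval of replicate 2 overlapped those of replicates 3 and 4 and not that of replicate 1.

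Split by name, 19 Rpl and Rplp names (large subunit) held 162 tags and 15 Rps names (small subunit) held 140. These include the 5 names outside the list of 80 subunit genes that are given below. Per gene name with a site, the log2 ratio of large over small was -0.06, -0.09, -0.34 and -0.49 in replicates 1 to 4 (mean -0.25 ± 0.21, SD, n = 4). The exact sign-flip permutation test, two-sided, gave p = 0.13 (adjusted p = 0.167). The direction was not stable: with only sites seen in more than 1 replicate the mean was 0.25 ± 0.18 (exact p = 0.25), while without Rplp1 and Rps24 it was -1.13 ± 0.46 (exact p = 0.13).

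Other functional groups were sparse. Of the 5S particle proteins, which also bind Mdm2 when free of the ribosome, Rpl11 had 5, 2, 0 and 0 tags and Rpl5 none. Among proteins around the exit of the peptide tunnel, Rpl19 had 3 tags, Rpl35 had 3 and Rpl31 had 1, while Rpl23a had none. Rps26, at the mRNA exit of the small subunit, had 7, 1, 2 and 0 tags, and Rps28 none. Rps6, the small subunit protein phosphorylated by S6 kinases, had a single tag, 0.537 kb past the end of the gene. Rpl22, the protein tagged in RiboTag mice, had 1 tag in replicate 2. Rps27a and Fau, encoded as fusions to ubiquitin and a ubiquitin-like protein, had none.

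The listed names did not always match the gene at the site. By GENCODE vM21, 31 of the 39 sites (79.5%) were within the gene they were named for, against 76.5% of all sites, and these held 96.7% of the member tags. The other 8 sites held 10 tags. They were the site named Rpl32l, in the 3′UTR of Map7, second sites named Rpl19, Rps25, Rpl15 and Rps20, and single sites named Rpl6, Rps29 and Rps6. The site named Rps29 lay 113 kb past its gene. Both sites named Rps14 lay in coding exons and had 1 tag each. Of the names, 5 are not on a list of 80 subunit genes: Rps27l and Rpl36al are paralogs, Rps4l and Rpl32l are annotated as pseudogenes, and Rps19bp1 encodes a protein that binds Rps19. These 5 names held 11 tags.

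A larger number of tags lay inside ribosomal protein genes under names that the rule does not take up. Search by position, added after seeing the data, found 19 further sites with 191 tags in 17 subunit genes, of which 17 sites and 176 tags carried the name of a small nucleolar RNA or microRNA. The vertebrate ribosomal protein genes host many such RNAs in their introns. All 19 lay in an annotated 3′UTR. Rpl13 of the large subunit, listed as Mir7079, had 26, 6, 0 and 6 tags at chr8:123105217. Rps21 of the small subunit, listed as Mir3091, had 13, 12, 2 and 3 tags at chr2:180258430 and was the only one of these genes with tags in every replicate. Rack1, a scaffold protein on the head of the small subunit, listed as Snord95, had 12, 11, 0 and 0 tags.

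Several role groups gained members in this way. Rps3, which lines the mRNA entry of the small subunit and is listed as Snord15b, had 12, 5, 0 and 0 tags. Rpsa, near the mRNA exit, had 2, 6, 0 and 2 as Snora62, and Rps2 had 1 tag. Rpl26, at the rim of the tunnel exit, had 8, 4, 0 and 2 as Gm15772. In the tunnel itself Rpl39 had 4 tags, all in replicate 1, and Rpl4 had 1, while Rpl17 had none. Replicate 3 held 7 of the 191 tags, or 0.118% of its total, against 0.593%, 1.06% and 0.312% in replicates 1, 2 and 4.

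By position, 43 subunit genes held 474 tags at 46 sites, of which Rplp1 and Rps24 held 33.1%. The shares became 1.43%, 2.56%, 0.656% and 0.607% (mean 1.31% ± 0.911, SD, n = 4), and 9 genes had tags in every replicate. Replicates 1 and 2 were still the highest, and the intervals of replicates 3 and 4 overlapped, as they did by name. The log2 ratio to respiratory chain genes by position was -0.24 ± 0.71 (exact sign-flip permutation p = 0.625), that to translation factors 1.24 ± 0.74 and that to mitochondrial ribosomal proteins 2.69 ± 1.39 (exact p = 0.13 for both).

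**Figure D3:**
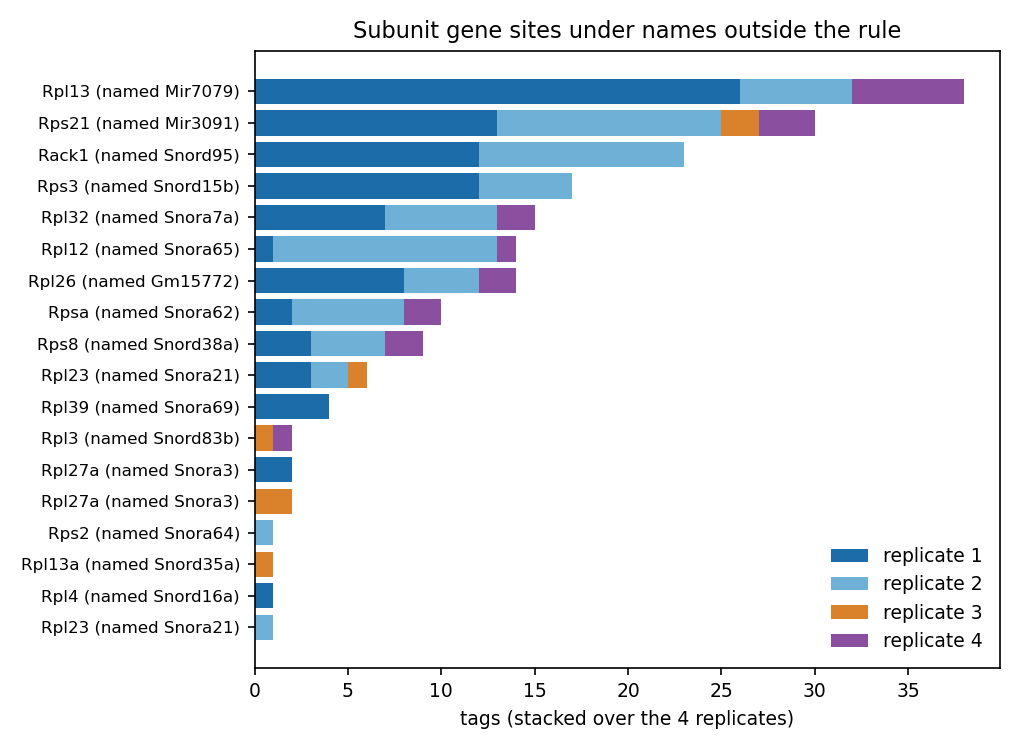
Tags (x axis), stacked over the 4 replicates, at 18 of the 19 sites inside ribosome subunit genes whose listed names fall outside the rule (name in brackets). Rpl13 holds 38 tags and Rps21 holds 30, and replicate 3 is nearly absent with 7 of 191 tags.

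Other mRNAs of the TOP class also stood partly under other names. Of 17 listed here, which include Rack1 and Fau, 9 had tags under their own names (25 tags) and 12 had tags inside the gene (92 tags). The elongation factor gene Eef2 had none by name and 14, 19, 3 and 0 tags by position, and Eef1b2 had none by name and 5, 3, 0 and 0 by position. The elongation factor subunit gene Eef1d had 3, 2, 1 and 1 tags. Eef1a1, Tpt1, Npm1 and Eif4b had none either way. In RefSeq promoter sequences, a C followed by 4 pyrimidines began exactly at the annotated start in 7 of 27 starts (25.9%) of 23 member genes, against 2.51% of all promoters, and within 5 bases of it in 55.6% against 12.7%. Over all subunit genes with a promoter sequence, 69 starts in all, these shares were 21.7% and 37.7%. This search was made on the strand of the gene.

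Many subunit genes were not found. By name, 30 of 80 (37.5%) were listed, 18 of 47 large subunit and 12 of 33 small subunit genes. The same count was 57 of 86 (66.3%) for respiratory chain genes, 35 of 68 (51.5%) for translation factors, 44 of 78 (56.4%) for mitochondrial ribosomal proteins and 29.4% for all protein-coding names. By name or position, 46 of the 80 had a site and 34 had none. The 19 large subunit genes without a site included Rplp2, Rpl5, Rpl7, Rpl7a, Rpl9, Rpl10, Rpl10a, Rpl17, Rpl21, Rpl23a, Rpl24, Rpl28, Rpl29, Rpl30, Rpl35a, Rpl36, Rpl36a and Rpl37. The 15 small subunit genes included Rps3a1, Rps4x, Rps7, Rps12, Rps13, Rps15, Rps16, Rps18, Rps19, Rps27, Rps27a, Rps28 and Fau. The table lists sites found earlier in Camk2a-expressing cells, judging from its name, so a missing gene is not shown to lack RNA in the neuropil.

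Copies in the genome were counted at the annotated mRNA ends and at the listed sites. The last 50 bases of the mRNA matched a median of 7 genome places for the 34 genes without a site and 1.5 for the 46 genes with one. The annotated end was often not the listed site: of 22 genes with a site inside them and a single match at the end, 15 had more than 1 match at the listed site with the most tags. Rps15a, Rplp0, Rps20 and Rps24, with 1 match at the end, had 13, 9, 7 and 5 there. The 50 bases at a listed site matched a single place at 10 of 39 member sites (25.6%), against 82.8% of all sites. A further 32 listed sites, with 31, 56, 16 and 8 tags in replicates 1 to 4, lay at copies of the ends of 27 subunit genes elsewhere in the genome. A copy of the Rps14 end, named Csdc2, had 2, 11, 4 and 3, against 2 at Rps14. It matched over all compared bases, so that the gene and its copy cannot be told apart there. The part of copies in the missing genes was not tested.

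Most member sites in a 3′UTR lay close to the stop codon. For 28 of the 39 sites, those in the 3′UTR of the named gene, the median distance from the stop codon, in spliced bases, was 32 (quartiles 22 and 98, range 1 to 1166). Over 6502 such sites of all genes the median was 1040. It was 121 for respiratory chain genes, 189 for mitochondrial ribosomal proteins and 422 for translation factors. Of the 28 sites, 17 (60.7%) lay within 50 bases of the stop codon, against 1.51% of all such sites, and sites within 50 bases held 208 of the 302 member tags (68.9%).

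The shortest distances were 1 base at Rpl22, 3 at Rps15a, 4 at Rps20 and 9 at Rpl8. In the printed sequences of Rps20, Rps15a and Rpl8 the stop codon and the polyA signal stand within the same 30 bases. The longest was 1166 bases at Rpl15. Rpl14 and Rps9 lay at 385 and 391 bases. Rplp1 lay at 22 and Rps24 at 87.

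**Figure D4:**
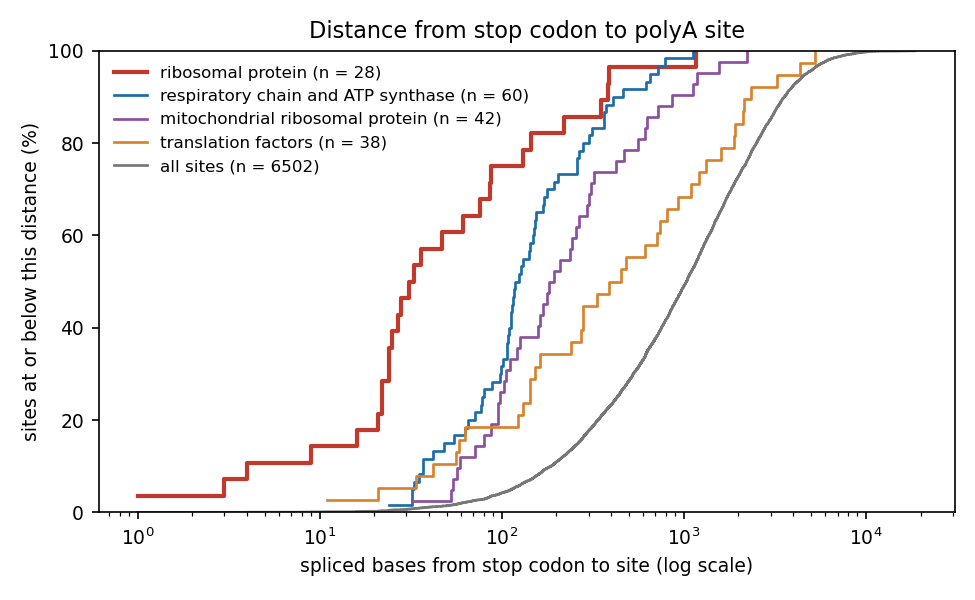
Cumulative percentage of sites (y axis) by spliced distance from the stop codon (x axis, bases, log scale) for sites in the 3′UTR of the named gene. Ribosomal protein sites have a median of 32 bases, against 121, 189 and 422 for the 3 comparison lists and 1040 for all sites, and their curve meets that of the respiratory chain list at its upper end.

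A polyA signal, AATAAA or ATTAAA on the strand of the site, started within 50 bases on either side of 34 of 39 member sites (87.2%, 95% Wilson interval 73.3 to 94.4), against 78.2% of all sites. Inside the named gene it was 30 of 31 (96.8%), with no share at hand for all sites inside their named gene. The signal started a median of 4 bases before the listed site, against a median of 2 bases before for all sites. It started from 15 bases before to 10 after the site in 30 of the 34. Most signals of all sites also lay in this range, starting from 15 bases before to 9 after, so the range does not set the members apart. Relative to the annotated transcript end, listed sites lay at a median of -19.5 bases (-24 for all sites), so the distances above stop short of the annotated 3′UTR end. For some members the gap was far larger, with sites at -3163 bases for Rps20, -261 for Rplp0, -231 for Rps23, -228 for Rpl11 and -162 for Rpl37a. GC content within 100 bases on either side had a median of 43.3%, against 37.3% for all sites.

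**Figure D5:**
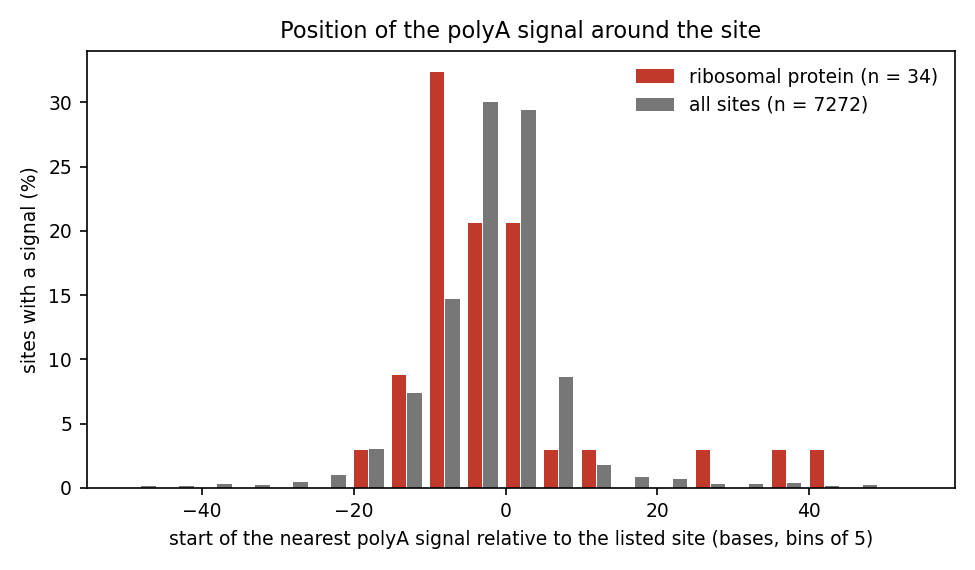
Start of the nearest polyA signal relative to the listed site (x axis, bases, bins of 5) as a percentage of sites with a signal (y axis), for ribosomal protein sites and all sites. Both peak within 10 bases of the listed site, with 32.4% of ribosomal protein sites in the bin from 10 to 6 bases before it.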

How the data were processed

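CA1 neuropil cTag-PAPERCLIP tags were analysed from 4 libraries. The authors deposited raw tag counts, whole numbers per 1-base polyA site with a gene name, for mm10. The submitters' processing notes name cutadapt and Novoalign, and the methods name CTK for clustering. Versions, duplicate collapsing and the treatment of multiple matches are not given in the sources used here. Per the labels all libraries form 1 group, numbered 1 to 4, and each pools mice, so p-values measure the spread between these pools.

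Shares are percentages of a replicate's tags. Replicate totals were 5947 to 16017. Sites were annotated with GENCODE vM21 (GRCm38), and 50-base sequences were matched to the genome with BLAST+ 2.17.0 (at least 90% identity over 45 bases). Log2 ratios were tested with an exact sign-flip permutation test. Chi-square per degree of freedom was a description for genes with at least 20 tags, or 10 where stated, tested on simulated data. SciPy 1.17.1 and pandas 2.3.3 were used. Alternatives were leaving out a replicate, site filters, gene lists and signal windows. Named genes were those with tags in every replicate, role groups, name mismatches, paralogs and missing list genes. The members and lists were chosen with earlier results of these data known. A few list genes and 1 copy site are not reported here by name.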

Additional observations from a re-analysis of the deposited data

Results flagged for a closer look

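In 4 of 22 sets of 4 replicate values examined, the gap between one replicate and the rest was above Dixon's 95% critical value. That value assumes independent values with a normal spread. Many sets here are shares of few tags, and the sets overlap, so the 4 cannot be set against a chance rate. For Rps10 the gap was 0.936, with replicate 2 high (10 tags, against 4, 1 and 1). For Rpl14 it was 0.875, with replicate 2 high (6 tags, against 1 in each other replicate). For Rps15a it was 0.898, for shares of 0.0187%, 0.0151%, 0.0504% and 0.0164% in replicates 1 to 4, which come from 3, 1, 3 and 1 tags and have overlapping 95% Wilson intervals. For total tags it was 0.934, with replicate 1 high at 16017. The first 3 rest on 8 to 16 tags per gene.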

How the results depend on the processing

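Of 139 values under other settings, 1 reversed and 10 moved. Some could not change, such as the ratios without the site with the most tags, or shares of genes with 1 site under site filters it passed. The ribosomal protein share without Rplp1 and Rps24, 0.419% against 0.844%, counted as unmoved. Shares and chi-square values were held to 1 SD, counts to 1.5 times distances to their quartiles and the polyA signal percentage to its 95% interval, while ratios, none of which passed their test, were held to direction alone. Without Rplp1 and Rps24 the ratios kept their direction, but large over small went to -1.13 and those to respiratory chain and mitochondrial ribosomal protein genes to -1.83 and 0.71, each by more than 1 SD. The ratio to mitochondrial ribosomal proteins also moved by more than 1 SD upward, to 2.9 with only sites in more than 1 replicate and to 2.69 by position, and large over small went to -0.47 per gene of the full list. The large over small subunit log2 ratio reversed to 0.25 with only sites in more than 1 replicate. The 19 sites with tags in more than 1 replicate became 11 for more than 2 replicates, 8 for all 4, 11 with at least 2 tags in each, and 12 to 19 with 1 replicate left out (12 without replicate 1 or replicate 2). The 8 genes in every replicate became 3 with at least 2 tags per replicate, and 8 to 11 with 1 replicate left out. Among these changed site counts, only that for all 4 replicates has a share over all sites, 4.9%. The changed gene counts have none, so they are not read against the whole table. PolyA signals were found at 61.5% of sites when searched 50 bases upstream only (53.6% of all sites) and at 94.7% of sites seen in more than 1 replicate (84.3% of all such sites). The median chi-square per degree of freedom was 1.15 with at least 10 tags and 4.81 to 10.6 with 1 replicate left out (10.6 without replicate 1). The cause of these changes was not tested.

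With 1 replicate left out, the ribosomal protein share ran from 0.605% to 1.02%, the large over small log2 ratio from -0.31 to -0.16, and the log2 ratios to respiratory chain, translation factor and mitochondrial ribosomal protein genes from -1.15 to -0.49, 0.77 to 1.44 and 1.37 to 2.09. The median over genes for the subunit ratio gave no value, because a median was 0. No paired analysis was possible because the samples form 1 group. Depth limits most members, as it does most names in the table: 7 of 34 had at least 10 tags, and 533 of all 7202 gene names.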
